A study of Mus musculus with 18 samples.

Results

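The comparison set hearts of wild-type (WT) mice fed a diet with propylthiouracil (PTU) against hearts of WT mice fed normal chow. Its members were the 6 libraries labelled with WT genotype and either diet, 3 on PTU and 3 on chow, of 18 libraries in the series, and every gene that reached 1 FPKM in at least 3 of the 18 libraries was described. That left 12587 of the 24341 genes in the deposited table. FPKM is a read count scaled for the length of the transcript and the size of the library. All mice were C57BL/6 and 12 weeks old, and the diets began at 8 weeks of age and ran for 4 weeks. The PTU group carried no genetic change and received PTU alone, and the chow group differed from it, per the labels, in the diet only. The other 4 groups, 3 libraries each, were WT mice given PTU and then 3 daily injections of triiodothyronine (T3), and mice labelled Med13 cKO (a cardiac-specific knockout of a Mediator subunit) on PTU, on PTU with T3 and on chow. The dose of PTU, hormone levels in blood and the Cre driver of the cKO line are not among the labels. Whether each library came from its own animal is not stated in the labels, and the p-values therefore reflect only how these samples varied, some of it possibly technical.

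PTU blocks thyroid peroxidase and so lowers the supply of thyroid hormone. In the heart the hormone acts through nuclear receptors, mainly the one encoded by Thra, which sit on DNA with or without bound T3 and raise or lower the transcription of nearby genes. Adult rodent ventricle depends on the hormone for fast myosin, rapid calcium reuptake, heart rate and oxidative capacity, and hypothyroid hearts beat slowly and contract weakly. The myosin exchange that marks this state was present in every PTU heart: Myh7, the slow chain, had 3088, 2599 and 3642 FPKM in PTU hearts, against 181, 103 and 124 FPKM in chow hearts. Myh6, the fast chain, had 404, 208 and 106 FPKM in PTU hearts, against 3719, 3603 and 2291 FPKM in chow hearts. Values are given in the order of replicates 1 to 3 throughout. The antisense transcript Mhrt overlaps Myh7 and the library kit does not mark the strand, so reads in the overlap could belong to either, yet the gene-level value of Mhrt went the other way, with 17.1, 18.6 and 17.4 FPKM in PTU hearts, against 82.2, 108 and 66.9 FPKM in chow hearts.

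The 6 libraries were alike in most respects. A library had 11677 to 12007 genes at 1 FPKM or more, its 10 leading genes took 13.7% to 15.7% of the FPKM total, and replicates correlated across genes with r of 0.984 to 0.992 on the log2 scale. The absolute depth is unknown, and steps between low values put the relative depth between 0.796 and 1.06 of the first chow library. Cardiomyocyte genes such as Tnnt2, Actc1 and Ttn were abundant in each heart, and the skeletal muscle myosins Myh1 and Myh4 lay at 0.0526 FPKM or less, so the tissue label held. A pair of libraries stood apart: PTU replicate 1 had 1075 FPKM of the atrial light chain Myl7, against 119 and 20.1 FPKM in the other PTU hearts and 38.1, 21.3 and 172 FPKM in the chow hearts, and chow replicate 3 had the highest Nppa, at 7637 FPKM. The summed atrial marker list held 8165, 3688 and 2369 FPKM in PTU hearts, against 3624, 1767 and 9313 FPKM in chow hearts. Nppa made up most of the sum in chow replicate 3, at 7637 of 9313 FPKM. Sln in that heart was 63.4 FPKM, near the 61.1 FPKM of PTU replicate 2. Its Bmp10 was 1.35 FPKM, against 61.4 FPKM in PTU replicate 1. PTU replicate 1 and chow replicate 3 are called atrial-rich below only because each had the highest summed list of its group. Counts below are also given without these 2 atrial-rich hearts, an alternative that keeps 2 libraries in each group.

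PTU shifted many genes by small amounts and a few by large ones. limma called 2111 of 12587 genes (16.8%) at an adjusted p under 0.05, 1009 higher (8.02%) and 1102 lower (8.76%) on PTU. The median size of a called change was 0.50 on the log2(FPKM + 1) scale, 1053 calls lay under 0.5 and 829 between 0.5 and 1. Another 199 lay between 1 and 2, and 30 reached 2, 10 of them higher and 20 lower, so that 229 genes (1.82%) were called with a log2 change of at least 1. PTU and chow values did not overlap for 2079 of the called genes and for 35.6% of all genes tested. Where a called gene is said below to be higher or lower in every PTU heart, this describes its values and adds no support to the call. The median log2 fold change over all tested genes was -0.000129. Without the 2 atrial-rich hearts 925 genes were called, 379 higher and 546 lower.

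The genes called higher held 14.2%, 14.2% and 13.97% of all FPKM in PTU hearts, against 9.15%, 9.36% and 9.40% in chow hearts. The genes called lower held 6.89%, 7.26% and 6.82% in PTU hearts, against 12.2%, 12.1% and 12.0% in chow hearts. These shares follow from the calls and are a description, without a test. Of the 2111 calls, 699 were lost under none of the 18 alternative settings, 287 higher and 412 lower, of which 65 were not tested under the filter of 5 FPKM. No called gene changed its direction under any alternative that tested it. Genes named below were called under each alternative that tested them unless the settings that ended the call are given, and Cbs and Col4a4 did not pass the filter of 5 FPKM. Single members named only to complete a count (Slc25a28, Hey1, Hspa12a, Psmd4, Ifitm1 and the complex I genes) were no longer called under 1 to 12 of the 18.

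**Figure D1:**
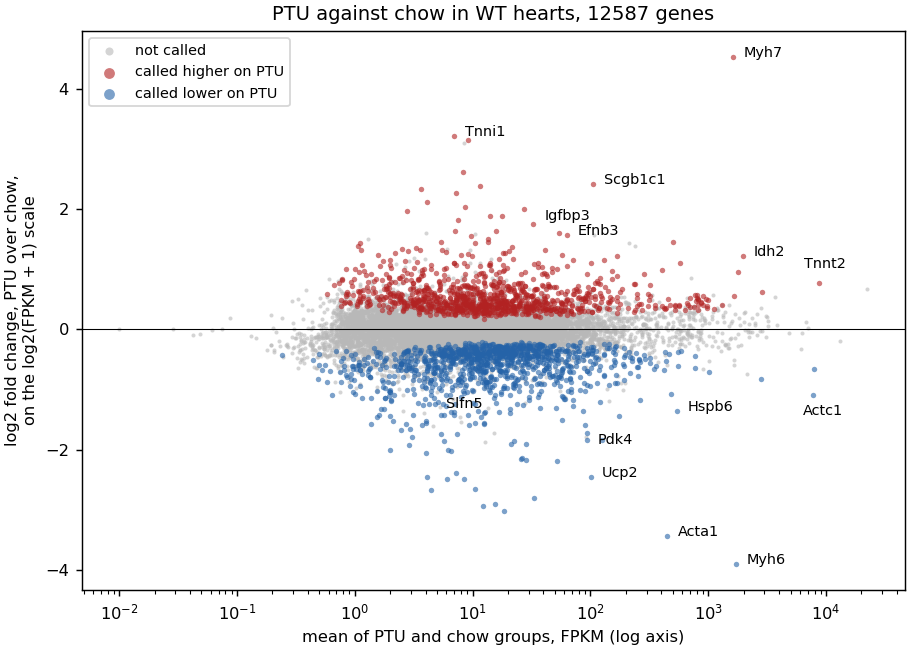
Each point is 1 of 12587 genes, with the mean of the PTU and chow group levels in FPKM on a log axis and the log2 fold change, PTU over chow, on the log2(FPKM + 1) scale on the vertical axis. Genes called higher (1009) and lower (1102) are coloured, and calls reach from the most abundant sarcomere genes to genes of 1 FPKM or less.

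Beyond the myosins, the genes that rose most on PTU included secreted and membrane signalling proteins. Igfbp3, a secreted binding protein of insulin-like growth factors on chromosome 11 from 7206086 to 7213923, had 53.7, 46.1 and 52.9 FPKM in PTU hearts, against 11.6, 12.4 and 20.3 FPKM in chow hearts (log2 fold change 1.76, SE 0.229, adjusted p = 1.44e-04). Apod, a secreted lipocalin that carries small lipids, had 31.8, 32.8 and 21.2 FPKM in PTU hearts, against 5.90, 5.45 and 10.1 FPKM in chow hearts (log2 fold change 1.88, SE 0.229, adjusted p = 8.17e-05). Efnb3, a membrane ligand of Eph receptors, had 96.3, 98.4 and 91.05 FPKM in PTU hearts, against 31.3, 36.3 and 27.5 FPKM in chow hearts (log2 fold change 1.57, SE 0.198, adjusted p = 1.04e-04). All 3 had every PTU heart above every chow heart, which their choice from the calls without overlap required. The Efnb3 values of the PTU hearts lay close together. Ntn1, the guidance factor netrin 1, reached 69.1, 50.9 and 56.97 FPKM in PTU hearts, against 23.1, 23.2 and 22.3 FPKM in chow hearts. Lgr6, a receptor for R-spondins of the Wnt pathway, reached 17.7, 10.8 and 9.67 FPKM in PTU hearts, against 1.90, 2.28 and 1.22 FPKM in chow hearts. Nr4a1, an orphan nuclear receptor of the immediate early class, had 25.2, 22.6 and 19.7 FPKM in PTU hearts, against 6.03, 6.16 and 4.15 FPKM in chow hearts (log2 fold change 1.88, SE 0.290, adjusted p = 5.45e-04). Over these 6 genes the ratio of the group means, PTU over chow, lay between 2.58 for Ntn1 and 7.06 for Lgr6.

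Several of the largest increases came from a low base. Cib3, a calcium- and integrin-binding protein, had 3.69, 6.87 and 10.1 FPKM in PTU hearts, against 0.372, 0.404 and 0.660 FPKM in chow hearts. Lad1, a basement membrane anchoring protein, had 9.04, 5.18 and 7.72 FPKM in PTU hearts, against 0.520, 0.566 and 1.78 FPKM in chow hearts. Lrrc4b, a synaptic adhesion protein, had 17.3, 19.2 and 24.1 FPKM in PTU hearts, against 2.91, 3.61 and 2.62 FPKM in chow hearts. Lad1 and Cib3 thus stood under 2 FPKM in every chow heart, where the log2(FPKM + 1) scale understates a change. Cep128, a centriole protein, rose by 2.04 on the log2 scale (SE 0.226), Pafah1b3, a subunit of platelet-activating factor acetylhydrolase, by 1.81 (SE 0.244) and Gchfr, which feeds back on tetrahydrobiopterin synthesis, by 1.63 (SE 0.340). The uncharacterised transcript 9630028I04Rik had 33.1, 47.9 and 50.3 FPKM in PTU hearts, against 14.6, 9.25 and 7.47 FPKM in chow hearts.

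Among the genes that fell most was Rtn4r, the Nogo receptor, which had 0.144, 0.939 and 0.385 FPKM in PTU hearts, against 10.9, 7.35 and 6.95 FPKM in chow hearts. Lrrc15, a leucine-rich repeat membrane protein, had 2.03, 1.46 and 1.29 FPKM in PTU hearts, against 14.2, 15.6 and 8.81 FPKM in chow hearts. Rtn4r thus stayed under 1 FPKM in every PTU heart, and Lrrc15 did not. Metrn, the secreted factor meteorin, had 8.60, 9.72 and 8.002 FPKM in PTU hearts, against 50.1, 43.3 and 35.3 FPKM in chow hearts (log2 fold change -2.16, SE 0.164, adjusted p = 1.92e-06). Trim7, a ubiquitin ligase that binds glycogenin, had 2.40, 1.57 and 2.02 FPKM in PTU hearts, against 12.4, 12.2 and 9.07 FPKM in chow hearts (log2 fold change -2.02, SE 0.186, adjusted p = 5.45e-06). Pla2g5, a secreted phospholipase, had 10.4, 13.3 and 6.23 FPKM in PTU hearts, against 54.5, 53.4 and 34.1 FPKM in chow hearts. Tfrc, the transferrin receptor that takes up iron, had 9.38, 7.23 and 8.11 FPKM in PTU hearts, against 27.3, 44.9 and 30.7 FPKM in chow hearts. The highest PTU heart stood below the lowest chow heart in Metrn, Trim7 and Pla2g5, as their choice required, and also in Tfrc.

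The smallest adjusted p of all 12587 genes belonged to Slfn5, a Schlafen family gene known to respond to interferon, on chromosome 11 from 82951349 to 82964840. It had 8.62, 9.19 and 9.59 FPKM in PTU hearts, against 22.99, 22.02 and 22.6 FPKM in chow hearts (log2 fold change -1.22, SE 0.0636, adjusted p = 2.41e-08), so the spread within each group was under 1 FPKM. Its exons overlap Slfn5os on the other strand. Trp53inp2, an autophagy regulator that is also a coactivator of thyroid hormone receptors, had 87.2, 98.2 and 94.5 FPKM in PTU hearts, against 250.4, 262 and 252 FPKM in chow hearts (log2 fold change -1.44, SE 0.117, adjusted p = 2.12e-06). Slc12a4, a potassium-chloride cotransporter, had 12.7, 11.6 and 9.79 FPKM in PTU hearts, against 29.7, 29.2 and 30.5 FPKM in chow hearts. Abcd2, a peroxisomal fatty acid transporter, had 0.636, 0.543 and 0.425 FPKM in PTU hearts, against 2.92, 3.003 and 2.56 FPKM in chow hearts. Among the increases, similarly tight groups were seen for Slc41a3, a magnesium transporter of the SLC41 family, at 30.8, 35.5 and 29.1 FPKM in PTU hearts, against 12.8, 11.3 and 10.9 FPKM in chow hearts, and Tceal1, a transcription elongation factor-like gene, at 18.98, 19.5 and 19.4 FPKM in PTU hearts, against 8.55, 10.5 and 8.84 FPKM in chow hearts. Phf1, a Polycomb-like protein whose exons overlap Cuta on the other strand, was at 30.2, 30.6 and 31.5 FPKM in PTU hearts, against 17.3, 17.9 and 18.4 FPKM in chow hearts, and Tmem164 at 27.2, 28.04 and 32.4 FPKM in PTU hearts, against 12.2, 11.02 and 10.7 FPKM in chow hearts.

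**Figure D2:**
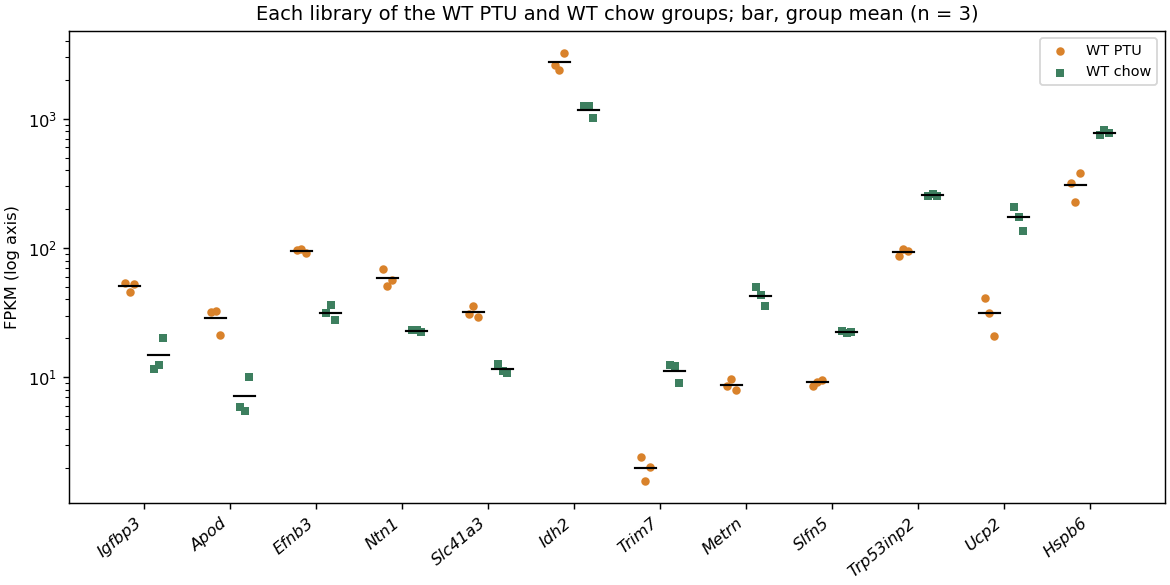
FPKM on a log axis for 12 genes in each WT PTU library (circles, left of each pair) and WT chow library (squares), with the group mean (n = 3) as a bar. The first 6 genes are higher and the last 6 lower on PTU, and in none of the 12 do the groups overlap.

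Lists of genes with a common function were counted next, each beside the background of 8.02% higher and 8.76% lower over all tested genes. Without the 2 atrial-rich hearts the background itself fell, to 379 higher and 546 lower of all 12587 genes. List counts without these hearts belong beside that smaller background. Why they fell was not tested. List counts in cKO hearts belong beside 6.44% higher and 9.59% lower, the shares of all tested genes called there. Cytosolic ribosomal proteins stood out on the higher side, with 35 of 79 tested members called. On the lower side were 24 of 60 interferon response genes, 13 of 42 mitochondrial carriers, 13 of 54 heat shock proteins and co-chaperones and 11 of 40 macrophage markers. Many other lists split in both directions or had a share near the background. Endothelial markers had 2 of 51 higher and 7 lower (1 and 5 without the 2 atrial-rich hearts). Matricellular genes had 1 of 70 higher and 3 lower (1 and 1 without them), and respiratory complexes II to V 4 of 55 higher and 3 lower (0 and 1 without them). Of 33 Mediator subunits, Med16 and Cdk19 were called higher and none lower. Both calls were lost under several alternatives, 5 for Med16 and 13 for Cdk19, which include leaving out PTU replicate 1, PTU replicate 2, chow replicate 3 or the 2 atrial-rich hearts (adjusted p up to 0.207 and 0.224).

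**Figure D3:**
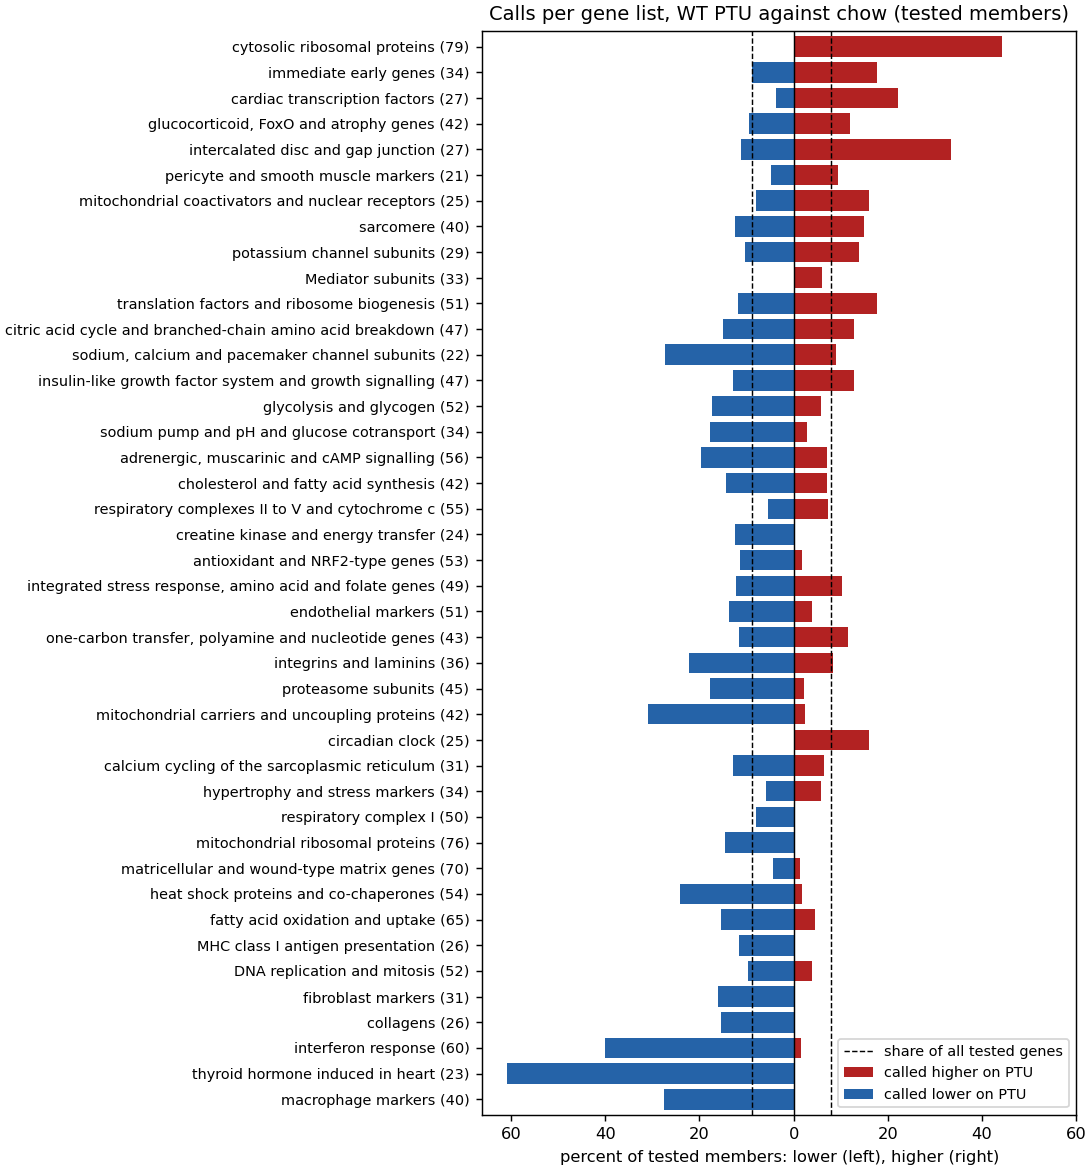
Percent of tested members called lower (left of 0) and higher (right of 0) on PTU in WT hearts for each list with at least 20 tested members (number in brackets), ordered by the median log2 fold change. Dashed lines mark the shares over all tested genes, 8.76% lower and 8.02% higher, and ribosomal proteins at the top and macrophage markers at the bottom lie past them.

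Contractile and electrical genes changed in both directions. Of 40 sarcomere genes 6 were called higher and 5 lower, and 3 and 4 without the 2 atrial-rich hearts. Besides the known myosin, troponin and actin changes, Myoz2, a Z-disc protein that binds calcineurin, had 708, 722 and 873 FPKM in PTU hearts, against 1318, 1216 and 1237 FPKM in chow hearts (log2 fold change -0.72, SE 0.141, adjusted p = 0.00285). The highest-level gene called higher was Tnnt2, cardiac troponin T, at 10859, 9241 and 12757 FPKM in PTU hearts, against 6917, 6468 and 5729.7 FPKM in chow hearts, and was no longer called under 4 alternatives, among them without PTU replicates 1 or 3 or chow replicate 3 or the 2 atrial-rich hearts (adjusted p up to 0.134). Actn2, the alpha-actinin of the Z-disc, was also called higher (log2 fold change 0.57), was no longer called without the 2 atrial-rich hearts (adjusted p = 0.0814) and was chosen after its value was seen. The laminin-binding integrin Itga7 of muscle had 36.6, 30.8 and 31.8 FPKM in PTU hearts, against 59.01, 60.3 and 48.9 FPKM in chow hearts (log2 fold change -0.74, SE 0.137, adjusted p = 0.00183).

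Of 29 potassium channel subunits 4 rose and 3 fell (2 and 3 without the 2 atrial-rich hearts). Of 22 sodium, calcium and pacemaker subunits 2 rose and 6 fell (1 and 4 without them). Kcnh2, which carries the rapid delayed rectifier current, had 30.4, 30.3 and 26.1 FPKM in PTU hearts, against 43.4, 46.4 and 37.6 FPKM in chow hearts, lower in every PTU heart. In contrast, Kcne1, a regulatory subunit of the slow delayed rectifier, had 6.23, 3.71 and 6.49 FPKM in PTU hearts, against 1.44, 0.818 and 2.75 FPKM in chow hearts (log2 fold change 1.31, SE 0.242, adjusted p = 0.00186). Kcnj5, a subunit of the acetylcholine-activated channel that is enriched in atria, had 63.04, 49.2 and 50.5 FPKM in PTU hearts, against 33.9, 30.1 and 33.1 FPKM in chow hearts. Kcnj5 was the only called gene of 17 atrial markers. Its PTU values were highest in replicate 1, the PTU heart with the most atrial transcripts, and its call stood without that heart.

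Hcn2, a pacemaker channel subunit, had 1.72, 1.96 and 1.94 FPKM in PTU hearts, against 18.3, 14.2 and 13.1 FPKM in chow hearts. The mitochondrial carrier Ucp3 had 2.47, 1.67 and 1.96 FPKM in PTU hearts, against 18.2, 25.6 and 12.6 FPKM in chow hearts. Both carry 2 copies of AGGTCA, the core hexamer of receptor binding sites, on either strand, in the 250 bases upstream of their RefSeq start. The windows are printed because these are the only called genes of the hormone-induced list with a match (2 of 13 with a window), with the hexamer or its reverse complement TGACCT in capitals. Both lie on the plus strand of GRCm38.p6, at chr10:79716384-79716633 for Hcn2 and chr7:100472741-100472990 for Ucp3.
Hcn2: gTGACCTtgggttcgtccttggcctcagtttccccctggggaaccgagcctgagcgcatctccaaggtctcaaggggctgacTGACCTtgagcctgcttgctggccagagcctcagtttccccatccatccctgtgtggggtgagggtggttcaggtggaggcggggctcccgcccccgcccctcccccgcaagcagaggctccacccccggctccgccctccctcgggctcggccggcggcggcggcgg
Ucp3: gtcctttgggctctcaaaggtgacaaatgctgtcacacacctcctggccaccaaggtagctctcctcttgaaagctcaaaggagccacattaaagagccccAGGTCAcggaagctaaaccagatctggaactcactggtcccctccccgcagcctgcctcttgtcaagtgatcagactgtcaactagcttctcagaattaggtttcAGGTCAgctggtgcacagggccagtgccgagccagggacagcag
The hexamer was found in 10.3% of the 9546 windows of tested genes, in 10.9% of windows of genes called higher and in 10.2% of those called lower. Among genes called with a log2 change of at least 1, it was in 12 of 64 windows (18.8%) of the higher and 17 of 110 (15.5%) of the lower genes. The spaced direct repeat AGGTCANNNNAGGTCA was in 0 of 9546 windows. A match is a stretch of letters in a short window and no measure of receptor binding.

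Calcium and signalling genes at the membrane followed. Slc8a1, the sodium-calcium exchanger, had 49.7, 43.3 and 52.9 FPKM in PTU hearts, against 28.9, 32.7 and 24.6 FPKM in chow hearts (log2 fold change 0.74, SE 0.140, adjusted p = 0.00208). Srl, the luminal calcium-binding protein sarcalumenin, had 181, 181 and 194 FPKM in PTU hearts, against 319, 329 and 307 FPKM in chow hearts (log2 fold change -0.78, SE 0.0909, adjusted p = 4.71e-05). Casq1, the calsequestrin of skeletal muscle, had 8.79, 13.1 and 2.89 FPKM in PTU hearts, against 61.3, 35.4 and 78.1 FPKM in chow hearts (log2 fold change -2.80, SE 0.553, adjusted p = 0.00426). Of 56 genes of adrenergic, muscarinic and cAMP signalling 4 rose and 11 fell, against 2 and 3 without the 2 atrial-rich hearts. Adora1, an adenosine receptor that slows the heart, had 3.11, 2.61 and 2.27 FPKM in PTU hearts, against 7.91, 8.39 and 6.11 FPKM in chow hearts (log2 fold change -1.20, SE 0.101, adjusted p = 2.15e-06). Prkar1a, the regulatory subunit of protein kinase A, had 292, 300.4 and 317 FPKM in PTU hearts, against 188, 161 and 189.6 FPKM in chow hearts (log2 fold change 0.76, SE 0.102, adjusted p = 1.56e-04). Adora1 was lower and Prkar1a higher in every PTU heart.

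Of 27 genes of intercalated discs and gap junctions 9 rose and 3 fell, and 3 and 1 without the 2 atrial-rich hearts. Cdh2, N-cadherin, the adhesion protein between cardiomyocytes, had 124, 103 and 141 FPKM in PTU hearts, against 67.7, 64.1 and 59.8 FPKM in chow hearts (log2 fold change 0.92, SE 0.106, adjusted p = 4.46e-05). The desmosomal protein Dsp had 226, 214 and 245 FPKM in PTU hearts, against 164, 153 and 116 FPKM in chow hearts (log2 fold change 0.67, SE 0.118, adjusted p = 0.00126). Gja1, the main connexin of ventricular gap junctions, had 195, 170.1 and 172 FPKM in PTU hearts, against 138, 125 and 116 FPKM in chow hearts, and was no longer called without the 2 atrial-rich hearts (adjusted p = 0.0971). The 3 lower members, named after their values were seen, were Ank3, Gja4 and Ctnna1, with log2 fold changes of -0.39, -0.62 and -0.33. Their calls ended under 2, 4 and 9 of the 18 alternatives, and each ended without at least 1 single library, and the adjusted p of Gja4 reached 0.250 over its alternatives. Of 27 cardiac transcription factors 6 were called higher and 1, Hey1, lower, and without the 2 hearts the numbers were 5 and 0. Gata6, with 1010001N08Rik on the other strand, had 34.1, 28.4 and 31.1 FPKM in PTU hearts, against 19.4, 19.6 and 21.03 FPKM in chow hearts, Tbx20 had 37.2, 32.4 and 34.2 FPKM in PTU hearts, against 19.3, 17.2 and 26.2 FPKM in chow hearts and Irx1 had 7.43, 6.62 and 6.75 FPKM in PTU hearts, against 3.79, 2.99 and 4.35 FPKM in chow hearts. Each of these 3 regulates heart development, and each was higher in every PTU heart.

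Mitochondrial genes were lower in part. Of 42 carriers and uncoupling proteins 13 fell and 1, Slc25a28, was called higher. The counts were 10 and 1 without the 2 atrial-rich hearts, and 16 fell in cKO hearts. Ucp2, an uncoupling protein that exports metabolites, lies on chromosome 7 from 100493337 to 100502020 and had 41.2, 31.7 and 20.7 FPKM in PTU hearts, against 209, 174 and 135 FPKM in chow hearts (log2 fold change -2.46, SE 0.314, adjusted p = 1.40e-04). Slc25a33, a pyrimidine nucleotide carrier, had 5.37, 6.09 and 8.07 FPKM in PTU hearts, against 20.5, 23.1 and 12.98 FPKM in chow hearts (log2 fold change -1.38, SE 0.214, adjusted p = 5.15e-04). Slc25a23, a calcium-regulated ATP-magnesium carrier, had 16.4, 19.3 and 14.7 FPKM in PTU hearts, against 34.2, 29.3 and 35.8 FPKM in chow hearts. Slc25a35, an orphan carrier that overlaps Rangrf on the other strand, had 2.57, 2.90 and 2.77 FPKM in PTU hearts, against 7.05, 6.14 and 4.54 FPKM in chow hearts. The ratio of group means, PTU over chow, lay between 0.181 for Ucp2 and 0.507 for Slc25a23. The median over the 42 was -0.11, against -0.000129 over all tested genes.

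Few respiratory chain genes were called. Of 50 complex I genes 41 had a negative log2 fold change, but 4 were called lower, 0 without the 2 atrial-rich hearts, and the median was -0.15. Of these 4, Ndufaf5, Ndufaf1 and Ndufaf4 are assembly factors and Ndufb6 is a subunit. In cKO hearts all 50 were negative and 15 called lower. In WT hearts 5 of the 50 had every PTU heart below every chow heart (17.3% of all genes did). Relative to each gene's mean, the complex I median overlapped between diets in both genotypes. It was -0.115, -0.27 and 0.18 in WT PTU hearts, against 0.11, 0.20 and -0.057 in WT chow hearts. In cKO hearts it was -0.20, -0.41 and 0.046 on PTU, against 0.24, 0.27 and 0.032 on chow. Of 76 mitochondrial ribosomal proteins 54 were negative and 11 called lower, 1 without the 2 atrial-rich hearts. Mrpl20, a protein of its large subunit, had 84.1, 99.9 and 104 FPKM in PTU hearts, against 151, 141 and 145 FPKM in chow hearts (log2 fold change -0.60, SE 0.117, adjusted p = 0.00254). Most members of these lists were not called in WT hearts.

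Genes of substrate use changed in both directions within pathways. Of 47 genes of the citric acid cycle and branched-chain amino acid breakdown 6 rose and 7 fell, with a median of 0.016. Without the 2 atrial-rich hearts 2 rose and 3 fell. Idh2, the mitochondrial NADP-dependent isocitrate dehydrogenase, was among the most abundant genes called higher, with 2613, 2374 and 3243 FPKM in PTU hearts, against 1256, 1250.2 and 1021 FPKM in chow hearts (log2 fold change 1.22, SE 0.214, adjusted p = 0.00127). At pyruvate dehydrogenase, Dlat, the acetyltransferase subunit, had 83.1, 75.7 and 95.002 FPKM in PTU hearts, against 133, 138 and 111 FPKM in chow hearts (log2 fold change -0.58, SE 0.135, adjusted p = 0.00824). Its inhibitory kinases moved apart: Pdk1 had 64.02, 73.98 and 82.4 FPKM in PTU hearts, against 51.9, 49.3 and 44.1 FPKM in chow hearts (log2 fold change 0.59, SE 0.124, adjusted p = 0.00478), whereas Pdk4 had 45.8, 28.2 and 49.3 FPKM in PTU hearts, against 150.5, 157 and 133 FPKM in chow hearts, and was no longer called without the 2 atrial-rich hearts (adjusted p = 0.0567). Pdhb, another subunit, was called lower (log2 fold change -0.68). Pdhb was no longer called under 2 alternatives, among them without PTU replicate 1 or the 2 atrial-rich hearts (adjusted p up to 0.0862). In branched-chain amino acid breakdown, Ppm1k, the phosphatase that activates the pathway's dehydrogenase, had 56.95, 39.8 and 60.5 FPKM in PTU hearts, against 30.8, 29.5 and 16.5 FPKM in chow hearts. Bckdhb, a subunit of that dehydrogenase, had a log2 fold change of 1.05. Ppm1k was no longer called without the 2 atrial-rich hearts (adjusted p = 0.107), and Bckdhb was no longer called under 3 alternatives, among them without PTU replicate 3 or chow replicate 3 or the 2 atrial-rich hearts (adjusted p up to 0.144). Pdhb and Bckdhb were chosen after their values were seen.

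Of 65 fatty acid genes 3 rose and 10 fell, but 0 and 5 without the 2 atrial-rich hearts. Of 52 genes of glycolysis and glycogen 3 rose and 9 fell, and 1 and 6 without them. Gpam, which starts triglyceride synthesis, had 27.8, 21.7 and 34.9 FPKM in PTU hearts, against 53.7, 54.6 and 49.3 FPKM in chow hearts (log2 fold change -0.90, SE 0.188, adjusted p = 0.00445). Ces1d, a lipid esterase counted in the antioxidant list, had 34.4, 24.3 and 26.9 FPKM in PTU hearts, against 102, 105 and 51.2 FPKM in chow hearts. Lpl, lipoprotein lipase, had 2285, 1894 and 2887 FPKM in PTU hearts, against 1299, 1358 and 966 FPKM in chow hearts, and was no longer called without the 2 atrial-rich hearts (adjusted p = 0.0616). Me1, the cytosolic malic enzyme that supplies NADPH, had 34.98, 29.7 and 35.2 FPKM in PTU hearts, against 59.7, 56.96 and 58.4 FPKM in chow hearts (log2 fold change -0.80, SE 0.135, adjusted p = 9.63e-04). Srebf1, which drives lipid synthesis and overlaps Rai1, had 31.8, 23.9 and 18.98 FPKM in PTU hearts, against 10.4, 14.2 and 9.001 FPKM in chow hearts, and was no longer called without the 2 atrial-rich hearts (adjusted p = 0.0604). Pygl, the liver form of glycogen phosphorylase, had 6.83, 6.42 and 6.99 FPKM in PTU hearts, against 2.96, 2.52 and 3.72 FPKM in chow hearts (log2 fold change 0.94, SE 0.218, adjusted p = 0.00837). Ampd3, an AMP deaminase that overlaps Rnf141, had 8.55, 8.81 and 8.48 FPKM in PTU hearts, against 16.3, 14.3 and 12.5 FPKM in chow hearts. Ppard, a nuclear receptor for fatty acids, had 7.27, 7.79 and 6.61 FPKM in PTU hearts, against 14.3, 13.9 and 11.7 FPKM in chow hearts (log2 fold change -0.80, SE 0.120, adjusted p = 3.81e-04). Malic enzyme, Gpam and Ppard were thus lower in every PTU heart, and Pygl higher.

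Cytosolic ribosomal protein genes lay almost uniformly on the higher side. Of 79 tested ribosomal protein genes 74 had a positive log2 fold change, 63 had every PTU heart above every chow heart (18.3% of all genes did) and 35 were called higher and 0 lower. The median log2 fold change was 0.35. Rps23 had 893, 969 and 983 FPKM in PTU hearts, against 592, 720.3 and 665 FPKM in chow hearts (log2 fold change 0.53, SE 0.107, adjusted p = 0.00355), Rpl10 had 1105, 1074 and 1172 FPKM in PTU hearts, against 721, 808 and 828 FPKM in chow hearts (log2 fold change 0.51, SE 0.117, adjusted p = 0.00778) and Rpl22 had 102, 101 and 112 FPKM in PTU hearts, against 77.3, 73.03 and 76.3 FPKM in chow hearts (log2 fold change 0.47, SE 0.0814, adjusted p = 0.00125). In all 3 genes every PTU heart stood above every chow heart. The count fell to 7 without the 2 atrial-rich hearts, with a median of 0.38, where 379 of all 12587 genes were called higher. It was 34 with atrial genes as a covariate, 15 with the 6 WT libraries fitted alone and 43 with upper-quartile scaling. Under these settings 1042, 699 and 1170 of all 12587 genes were called higher. In cKO hearts 9 were called higher, beside 810 of all 12587 genes, and the median was 0.22. Ribosomal protein genes have many processed copies in the genome, and how reads were shared between copies is not given here.

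Other parts of the translation machinery were not called in a single direction. Of 51 translation factors and ribosome biogenesis genes 9 rose and 6 fell, but 3 and 2 without the 2 atrial-rich hearts. Eef2, the elongation factor that moves the ribosome along, had 1071, 1084 and 1101 FPKM in PTU hearts, against 800.2, 739 and 675 FPKM in chow hearts (log2 fold change 0.56, SE 0.101, adjusted p = 0.00157). Npm1, a nucleolar chaperone of ribosome assembly, had 199, 199 and 219.7 FPKM in PTU hearts, against 155, 152 and 153 FPKM in chow hearts. Eif4g1, the scaffold of cap-dependent initiation, had 80.1, 74.9 and 91.4 FPKM in PTU hearts, against 110.0, 112 and 100.3 FPKM in chow hearts (log2 fold change -0.39, SE 0.0806, adjusted p = 0.00424). Eef2 and Npm1 were therefore higher and Eif4g1 lower in every PTU heart.

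Part of the protein quality control genes fell. Of 54 heat shock proteins and co-chaperones 13 were called lower and 1, Hspa12a, higher, against 7 and 0 without the 2 atrial-rich hearts, and 16 were called lower in cKO hearts. Hspb6, a small heat shock protein abundant in cardiac muscle that overlaps Lin37 and Proser3 on the other strand, had 319, 227 and 379 FPKM in PTU hearts, against 743, 818 and 772 FPKM in chow hearts (log2 fold change -1.36, SE 0.233, adjusted p = 0.00108). Hsph1, an exchange factor of heat shock proteins, had 10.2, 13.1 and 9.37 FPKM in PTU hearts, against 27.5, 22.2 and 22.5 FPKM in chow hearts (log2 fold change -1.08, SE 0.223, adjusted p = 0.00427). Hspa4, of the same family, had 38.5, 39.04 and 41.4 FPKM in PTU hearts, against 54.03, 52.1 and 49.5 FPKM in chow hearts. Chordc1, a co-chaperone, had 16.6, 19.6 and 16.1 FPKM in PTU hearts, against 26.97, 23.2 and 23.9 FPKM in chow hearts. Dnaja4, a co-chaperone that overlaps Wdr61, had 36.5, 44.4 and 44.8 FPKM in PTU hearts, against 77.9, 68.1 and 66.7 FPKM in chow hearts. For each of these 5 genes the highest PTU heart stood below the lowest chow heart. Of 45 proteasome genes 8 were called lower and 1, Psmd4, higher, against 3 and 0 without those 2 hearts. Psme4, an activator of the proteasome core, had 58.6, 54.02 and 65.6 FPKM in PTU hearts, against 113, 97.5 and 99.6 FPKM in chow hearts (log2 fold change -0.79, SE 0.0978, adjusted p = 8.11e-05). The lid subunit Psmd14 had 33.7, 30.2 and 33.3 FPKM in PTU hearts, against 43.4, 44.3 and 49.99 FPKM in chow hearts. Nfe2l1, the transcription factor that maintains proteasome genes, had 133, 131 and 138 FPKM in PTU hearts, against 177, 181 and 165 FPKM in chow hearts (log2 fold change -0.37, SE 0.0853, adjusted p = 0.00730).

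**Figure D4:**
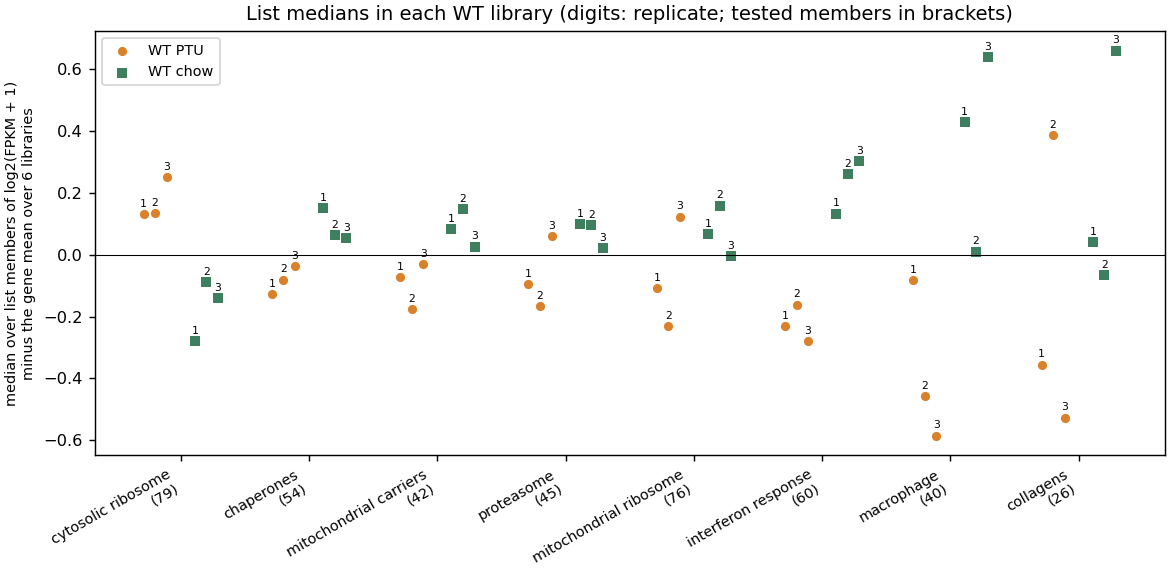
Median over the tested members of each list (number in brackets) of log2(FPKM + 1) minus the gene's mean over the 6 libraries, for each WT PTU heart (circles, left) and WT chow heart (squares), with the replicate number above each point. PTU hearts lie above all chow hearts for the cytosolic ribosome and below them for chaperones, carriers, the interferon response and macrophage markers, while proteasome, mitochondrial ribosome and collagen medians overlap.

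Stress and nutrient genes changed singly. Ddit4, which restrains mTOR, was among the clearest increases at 75.04, 86.2 and 82.7 FPKM in PTU hearts, against 28.3, 25.3 and 24.4 FPKM in chow hearts. Gadd45b, a stress-induced gene, had 15.4, 12.2 and 20.05 FPKM in PTU hearts, against 6.59, 6.04 and 8.68 FPKM in chow hearts (log2 fold change 1.05, SE 0.216, adjusted p = 0.00426). Sqstm1, an autophagy receptor, had 392, 339 and 406 FPKM in PTU hearts, against 273, 236 and 261 FPKM in chow hearts. The mitophagy receptor Bnip3 had 166, 159.7 and 193 FPKM in PTU hearts, against 129, 118 and 111 FPKM in chow hearts. Klf9, a known glucocorticoid and thyroid hormone target, had 15.7, 14.98 and 21.5 FPKM in PTU hearts, against 35.8, 33.4 and 25.1 FPKM in chow hearts (log2 fold change -0.82, SE 0.167, adjusted p = 0.00369). Of the 42 genes of the glucocorticoid, FoxO and atrophy list 5 rose and 4 fell, and 4 and 1 without the 2 atrial-rich hearts. In amino acid metabolism, Gpt2, the mitochondrial alanine aminotransferase, had 4.59, 5.04 and 4.70 FPKM in PTU hearts, against 18.9, 17.3 and 12.4 FPKM in chow hearts (log2 fold change -1.56, SE 0.182, adjusted p = 4.97e-05). Mtr, methionine synthase, had 14.8, 15.4 and 16.8 FPKM in PTU hearts, against 28.2, 21.3 and 21.2 FPKM in chow hearts. Cbs, which withdraws homocysteine into cysteine synthesis, had 1.39, 2.44 and 2.30 FPKM in PTU hearts, against 0.415, 0.205 and 0.01 FPKM in chow hearts. Nampt, the rate-limiting enzyme of NAD salvage, had 139, 110.0 and 170.2 FPKM in PTU hearts, against 76.8, 65.05 and 50.96 FPKM in chow hearts (log2 fold change 1.10, SE 0.208, adjusted p = 0.00223). Nqo1, a quinone reductase, had 58.1, 45.6 and 65.1 FPKM in PTU hearts, against 35.1, 31.5 and 34.1 FPKM in chow hearts (log2 fold change 0.71, SE 0.119, adjusted p = 8.45e-04). Of the 53 genes of the antioxidant and NRF2-type list 1 was called higher and 6 lower, and 1 and 3 without the 2 atrial-rich hearts. The median of that list was -0.063. Nampt and Nqo1 were higher, and Gpt2 and Mtr lower, in every PTU heart.

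Growth factor and vascular genes also split. Of 47 genes of the insulin-like growth factor system and growth signalling 6 rose and 6 fell, and 2 and 4 without the 2 atrial-rich hearts. Next to Igfbp3, the scavenger receptor Igf2r had 50.4, 45.8 and 51.2 FPKM in PTU hearts, against 34.9, 26.6 and 26.9 FPKM in chow hearts (log2 fold change 0.73, SE 0.130, adjusted p = 0.00146). Fgf1, a cardiac growth factor, had 38.6, 38.5 and 39.5 FPKM in PTU hearts, against 75.5, 80.4 and 52.05 FPKM in chow hearts (log2 fold change -0.79, SE 0.155, adjusted p = 0.00271). Apelin and its receptor, which raise contractility and vessel growth, fell together: Aplnr had 1.99, 2.19 and 1.47 FPKM in PTU hearts, against 9.63, 12.5 and 9.62 FPKM in chow hearts (log2 fold change -2.004, SE 0.183, adjusted p = 5.19e-06) and Apln had 0.383, 0.387 and 0.658 FPKM in PTU hearts, against 2.11, 2.59 and 2.11 FPKM in chow hearts (log2 fold change -1.15, SE 0.213, adjusted p = 0.00192). The endothelin receptors both rose, Ednra at 23.6, 28.1 and 23.5 FPKM in PTU hearts, against 17.4, 12.9 and 14.2 FPKM in chow hearts and Ednrb at 8.21, 7.71 and 7.20 FPKM in PTU hearts, against 4.12, 5.11 and 6.06 FPKM in chow hearts. Eng, an endothelial coreceptor of the TGF-beta family that overlaps Fpgs, had 61.1, 50.3 and 49.3 FPKM in PTU hearts, against 83.7, 89.8 and 90.1 FPKM in chow hearts. Ace, angiotensin-converting enzyme, had 19.5, 21.7 and 18.9 FPKM in PTU hearts, against 38.6, 33.98 and 55.3 FPKM in chow hearts (log2 fold change -1.02, SE 0.194, adjusted p = 0.00232). Acta2, smooth muscle actin, had 45.4, 85.96 and 38.7 FPKM in PTU hearts, against 163, 231 and 196 FPKM in chow hearts (log2 fold change -1.85, SE 0.310, adjusted p = 0.00105). It was the only one of 21 pericyte and smooth muscle markers called lower, while 2, Ednra and Mustn1, were called higher, with the same counts without the 2 atrial-rich hearts. Mustn1 was no longer called without chow replicate 2 (adjusted p = 0.0615). Of the 21, 13 had a positive log2 fold change, and the median was 0.11. Their summed level, Acta2 included, was 1447, 1337 and 1378 FPKM in PTU hearts, against 1544, 1517 and 1722 FPKM in chow hearts. Pecam1, a general endothelial marker, lay at 71.2, 69.0 and 64.3 FPKM in PTU hearts, against 55.7, 64.7 and 63.5 FPKM in chow hearts. Of the 51 endothelial markers 30 had a negative log2 fold change and 7 were called lower and 2 higher, with a median of -0.078. Their summed level was 2733, 2920 and 3264 FPKM in PTU hearts, against 2827, 3273 and 2837 FPKM in chow hearts.

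Of 26 collagens 0 were called higher, and the 4 called lower (1 without the 2 atrial-rich hearts) were all chains of basement membrane collagen IV, Col4a1 to Col4a4, and the interstitial collagen Col1a1 ranged from 7.73 to 60.4 FPKM in PTU hearts and from 23.6 to 66.6 FPKM in chow hearts. Col4a4 had 0.989, 0.914 and 0.938 FPKM in PTU hearts, against 2.69, 2.11 and 4.30 FPKM in chow hearts (log2 fold change -1.01, SE 0.178, adjusted p = 0.00126), but the other 3 were no longer called under 3 to 9 alternatives. Leaving out chow replicate 3 or the 2 atrial-rich hearts ended each of these 3 calls, and leaving out PTU replicate 1 or 3 ended those of Col4a1 and Col4a2. Without the 2 atrial-rich hearts the adjusted p was 0.284 for Col4a1, 0.175 for Col4a2 and 0.119 for Col4a3, and the filter of 5 FPKM gave 0.389 for Col4a3. The median over collagens was -0.41 in WT hearts (-0.19 without the 2 atrial-rich hearts) and 0.27 in cKO hearts. Relative to each gene's mean, the collagen median was -0.31, 0.89 and -0.31 in cKO PTU hearts, against -0.12, -0.29 and 0.010 in cKO chow hearts. Only cKO PTU replicate 2 thus stood above the cKO chow hearts. Fibroblast markers moved with the collagens in WT hearts: 30 of 31 had a negative log2 fold change, the median was -0.32, and 5 were called lower and 0 higher (1 and 0 without the 2 atrial-rich hearts). Their summed level was 2717, 3064 and 1845 FPKM in PTU hearts, against 2979, 2814 and 4073 FPKM in chow hearts, with none of the 31 at the lowest deposited value in a WT heart. The part of fibroblast content in the matrix values was not tested. Ltbp4, which binds latent TGF-beta, had 65.2, 73.1 and 54.7 FPKM in PTU hearts, against 114, 121 and 134 FPKM in chow hearts (log2 fold change -0.93, SE 0.126, adjusted p = 1.68e-04). Hspg2, perlecan, had 35.9, 39.1 and 32.2 FPKM in PTU hearts, against 53.9, 54.1 and 52.5 FPKM in chow hearts. Itga9, an integrin of tenascin, had 6.28, 6.97 and 5.38 FPKM in PTU hearts, against 11.6, 14.001 and 14.9 FPKM in chow hearts (log2 fold change -1.01, SE 0.152, adjusted p = 3.82e-04). In the cell cycle list 2 of 52 rose and 5 fell, and 1 and 3 without the 2 atrial-rich hearts. Cenpa, the centromeric histone, had 4.93, 5.66 and 7.01 FPKM in PTU hearts, against 16.98, 22.5 and 18.03 FPKM in chow hearts (log2 fold change -1.56, SE 0.167, adjusted p = 2.16e-05).

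Interferon response genes lay mostly on the lower side. Of 60 tested members 56 had a negative log2 fold change, 31 had every PTU heart below every chow heart (17.3% of all genes did), 24 were called lower and 1, Ifitm1, higher. The median was -0.45. Irf1, a transcription factor that drives such genes, had 9.85, 9.66 and 8.45 FPKM in PTU hearts, against 16.6, 14.7 and 14.96 FPKM in chow hearts (log2 fold change -0.67, SE 0.133, adjusted p = 0.00295). Rtp4, a chaperone-like antiviral gene, had 2.04, 2.54 and 1.95 FPKM in PTU hearts, against 4.02, 4.44 and 4.05 FPKM in chow hearts (log2 fold change -0.70, SE 0.145, adjusted p = 0.00389). Gbp3, a guanylate-binding protein, had 1.64, 1.71 and 1.43 FPKM in PTU hearts, against 6.27, 7.47 and 5.78 FPKM in chow hearts. The call count was 8 without the 2 atrial-rich hearts and 11 in cKO hearts. Summed macrophage markers moved the same way, at 521, 353 and 340 FPKM in PTU hearts, against 834, 583 and 1023 FPKM in chow hearts, and their part in the interferon result was not tested.

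The interferon-stimulated response element carries pairs of GAAA. GAAANNGAAA, on either strand, was in 20 of 45 windows (44.4%) of the interferon list and in 9 of the 19 (47.4%) of its called members, against 240 of 9546 windows (2.51%) over all tested genes and 26 of 852 (3.05%) of those called lower. The list's members are known interferon targets, so this describes the list and not the diet. Windows of Gbp3 (plus strand of GRCm38.p6, chr3:142559794-142560043) and of Slfn5 (plus strand, chr11:82951852-82952101) are shown because Gbp3 had the smallest adjusted p of the list and Slfn5 the smallest of all genes. GAAANNGAAA or its reverse complement is in capitals, and in Gbp3 a pair of matches overlap. The Slfn5 window lies inside the gene span given above, which comes from GENCODE, because the RefSeq start lies further downstream. The Slfn5 match runs into a stretch of A.
Gbp3: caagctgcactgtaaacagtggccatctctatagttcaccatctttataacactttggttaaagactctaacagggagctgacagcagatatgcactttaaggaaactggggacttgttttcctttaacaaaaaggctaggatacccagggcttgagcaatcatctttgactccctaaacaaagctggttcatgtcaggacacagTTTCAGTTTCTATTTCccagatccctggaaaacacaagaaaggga
Slfn5: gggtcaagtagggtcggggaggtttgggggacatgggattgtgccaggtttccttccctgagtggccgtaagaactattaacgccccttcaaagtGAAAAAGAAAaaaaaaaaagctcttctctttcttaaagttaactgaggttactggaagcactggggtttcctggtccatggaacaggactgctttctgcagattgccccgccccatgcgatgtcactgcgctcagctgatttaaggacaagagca
The sequences are from RefSeq, which gave a window for 9546 of the 12587 tested genes.

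Nearly all macrophage markers had lower values on PTU, and a part of them were called. Of 40 tested markers 39 had a negative log2 fold change, 11 were called lower, 0 higher, and the median was -0.73. Cbr2, a carbonyl reductase used as a marker of tissue macrophages, had 14.4, 8.74 and 5.31 FPKM in PTU hearts, against 45.4, 33.7 and 49.97 FPKM in chow hearts (log2 fold change -2.15, SE 0.241, adjusted p = 4.33e-05). Folr2 and Cd163, markers of resident macrophages, had log2 fold changes of -0.88 and -0.73, but Folr2 was no longer called under 3 alternatives, among them without PTU replicate 2 or chow replicate 3 (adjusted p up to 0.0668), and Cd163 was no longer called under 3 alternatives, among them without PTU replicate 2 or chow replicates 1 or 3 (adjusted p up to 0.0547). Without the 2 atrial-rich hearts 9 were called, and in cKO hearts 2. In bulk tissue, fewer macrophages and less RNA of these genes per macrophage cannot be told apart. The summed list was highest in chow replicate 3. Summed lymphoid markers lay between 16.9 and 39.2 FPKM in the 6 hearts. PTU replicate 1 held 42.1 FPKM of S100a8 and 46.0 FPKM of S100a9, against at most 3.87 FPKM of either in the other 5 hearts.

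The cKO hearts on PTU and on chow share no library with the WT comparison and so show how far the WT calls are seen elsewhere. Their summed atrial marker list held 4108, 11697 and 7072 FPKM on PTU, against 2173, 2313 and 3915 FPKM on chow. Every cKO PTU heart thus lay above every cKO chow heart in this sum, by which diet and atrial share cannot be told apart in them. Relative to each gene's mean, the median of the atrial list was -0.32, -0.13 and 0.53 in cKO PTU hearts. It was -0.20, -0.073 and -0.28 in cKO chow hearts, so by this measure the groups overlapped. In the cKO hearts 2017 genes (16.0%) were called, 810 higher (6.44%) and 1207 lower (9.59%). The genes called in the same direction in both genotypes numbered 1066, 50.5% of the WT and 52.9% of the cKO calls. Both contrasts came from a single fit in which each gene has the same estimate of spread, so the shared calls are not an independent check. No gene was called in opposite directions. With atrial genes as a covariate 1256 genes were called in cKO hearts, 858 of them also called in the same direction in WT hearts. Of the 2111 WT calls 2035 (96.4%) had the same sign in cKO hearts, and across these genes the log2 fold changes correlated with r = 0.899 (0.690 over all 12587), where genes are not independent and the hearts share a strain and diet. The gene-level Med13 values did not separate the genotypes, at 6.05, 4.93 and 5.04 FPKM in cKO PTU hearts and 6.26, 6.34 and 5.09 FPKM in cKO chow hearts, against 6.55, 5.57 and 6.96 FPKM in WT PTU hearts and 5.52, 5.24 and 5.80 FPKM in WT chow hearts, so the cKO group is called by its label.

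The test of the difference in the PTU response between WT and cKO hearts called 0 genes (0.0%) by limma, with 805 genes at an unadjusted p under 0.05. Some of the largest WT changes were not called in cKO hearts, but the test of the difference did not call them either. Ucp2 had a log2 fold change of -2.46 in WT and -0.81 in cKO hearts (difference -1.65, SE 0.445, adjusted p = 0.764). Lad1 had 2.12 and 0.46 (difference 1.66, SE 0.332, adjusted p = 0.739), and Casq1 had -2.80 and -0.55 (difference -2.24, SE 0.782, adjusted p = 0.764). Lad1, Enkur and Egf had the smallest unadjusted p, and Enkur, a ciliary protein, had 0.08 in WT and 2.06 in cKO hearts (adjusted p of the difference 0.739). Metrn, Trim7, Slfn5, Igfbp3, Apod and Efnb3 were called in the same direction in cKO hearts, with log2 fold changes of -1.62, -2.08, -1.10, 1.61, 2.30 and 1.28.

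**Figure D5:**
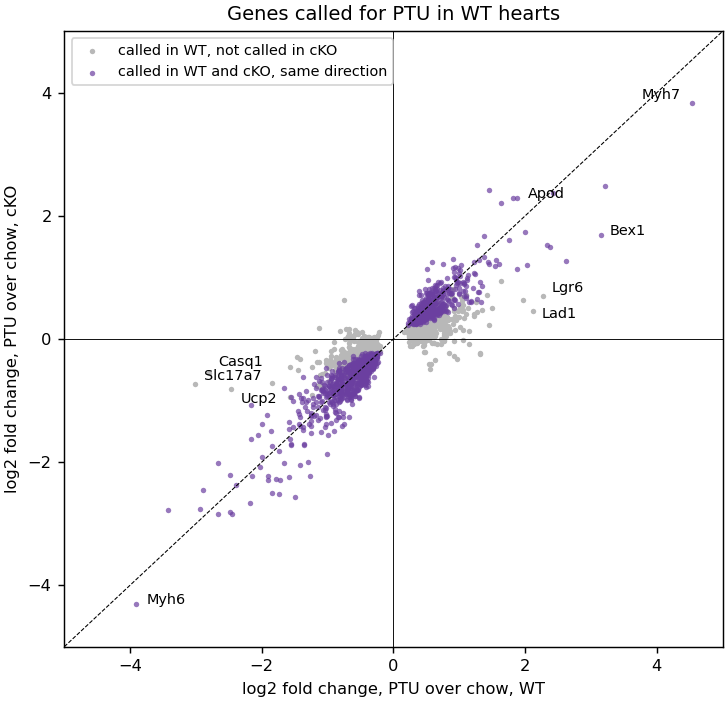
Log2 fold change, PTU over chow, in WT hearts (horizontal) and cKO hearts (vertical) for the 2111 genes called in WT hearts, with the 1066 called in the same direction in cKO hearts in purple and the line of equal change dashed. Nearly all points lie in the 2 quadrants of equal sign (2035 of 2111).

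Levels in WT hearts given T3 after PTU place some of these genes further. That group is compared here by its values alone, since any contrast with the PTU group shares the PTU libraries. Metrn averaged 120.4 ± 17.6 FPKM in hearts given T3 after PTU, 8.78 ± 0.873 FPKM in PTU hearts and 42.9 ± 7.39 FPKM in chow hearts (SD, n = 3 each). Igfbp3 averaged 13.6 ± 1.08 FPKM in T3 hearts, 50.9 ± 4.21 FPKM in PTU hearts and 14.8 ± 4.80 FPKM in chow hearts. The T3 means of Metrn and of Igfbp3 thus lay on the chow side of the PTU values, and that of Metrn lay above the chow mean. Rps23 averaged 833 ± 61.5 FPKM in T3 hearts, 948 ± 48.004 FPKM in PTU hearts and 659 ± 64.6 FPKM in chow hearts, so its T3 mean lay between the other groups.

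The authors' deposited table of the same comparison lists 12249 genes with a test, of which 2060 had a q-value under 0.05, 928 higher and 1132 lower on PTU. Of 12196 genes present in both analyses, 1461 were called by both in the same direction, 69.6% of the limma calls and 71.3% of the authors', and 0 in opposite directions. Some genes named above were not under 0.05 by the authors' q-value. Among them were Myh6 (0.123), Mhrt (0.166), Hcn2 (0.228), Tnnt2 (0.122), Cbs (0.203), Nqo1 (0.0815) and Slc25a35 (0.0895). Both analyses rest on the same 6 libraries, so the overlap compares methods and not samples.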

How the data were processed

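Hearts were frozen, RNA was extracted with Trizol and a TruSeq kit (V2) was used for the libraries, per the labels' protocols. Bowtie2, Cufflinks and the build mm10 appear in the submitters' processing notes, with no versions. The gene annotation and any strand setting are not given in those notes. The authors deposited FPKM values per gene, 1 column per library, for 24341 genes, and a table of the same comparison with a group value in FPKM, a p-value and a q-value for each gene, per the file headers. The lowest FPKM written was 0.01 (152291 cells). A failed estimate marked 5 cells of 2 genes, which were left out.

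The 12587 genes reaching 1 FPKM in 3 or more of the 18 libraries were tested as log2(FPKM + 1), a scale that understates the change of low genes. Group means of the 6 groups, taken from the genotype and treatment labels, were fitted over 18 libraries in limma 3.58.1 (R 4.3.3; trended, robust prior; 12 residual degrees of freedom) after a test on simulated data. Benjamini-Hochberg adjustment ran over all tested genes, and calls needed an adjusted p below 0.05 but no minimum size. FPKM carries no read totals, so the depth is unknown and no counting intervals are given. Positions are from the GENCODE annotation of GRCm38 (mm10), and upstream sequences from RefSeq (GRCm38.p6).

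Genes named are the 20 highest and 20 lowest calls without overlap, the 10 smallest p and the 10 most abundant calls in each direction, up to 5 calls per list, a fixed panel, the 3 smallest p for the genotype difference and cell type markers. Some genes under this rule are not reported here. The members and the gene lists were chosen with earlier results of these data known. The 18 alternatives changed the pseudocount, filter, scaling, prior, weights, libraries fitted and atrial share, and 2 of them were added after the data were seen.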

Additional observations from a re-analysis of the deposited data

How the results depend on the processing

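No paired analysis was possible because the numbers in the sample titles differ between all samples. Single omitted libraries gave 1346 to 1787 calls for PTU in WT hearts, the fewest without PTU replicate 1 (1346) and without chow replicate 1 (1379), and 209 to 241 with a log2 change of at least 1. They gave 1847 to 2045 calls for PTU in cKO hearts, 775 to 958 shared with cKO and 0 to 0 for the difference between genotypes. Without the 2 atrial-rich hearts there were 925 calls, 665 of them shared with cKO. With atrial genes as a covariate the WT count was 2201 and the cKO count 1256. Sample weights gave 3438 calls, a pseudocount of 0.1 gave 375 with a log2 change of at least 1, and with no filter on low values 3 genes were called for the difference between genotypes. The cause of these moves was not tested.

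The log2 fold changes that turned sign all belong to genes not called in the WT comparison. Nppa gave -0.044 with the atrial covariate, -0.20 with that covariate computed without Nppa, and -0.74 to 0.87 over single omitted libraries. Nppb gave 0.19 without the 2 atrial-rich hearts and -1.23 to 0.050 over single libraries. Kcnd2 gave -0.31 without those 2 hearts, -0.18 with sample weights and -0.36 to 0.29 over single libraries. Sample weights gave 0.035 for Myc and -0.13 for Enkur. Over single omitted libraries Tnni3 ran from -0.21 to 0.096, Vegfa from -0.23 to 0.0093, Myc from -0.47 to 0.11 and Enkur from -0.15 to 0.24. The depth is unknown, so the counting error of low genes could not be given.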
